A study of Rattus norvegicus with 3 samples.

Results

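The WNK-SPAK kinases and their partners were examined in the medullary thick ascending limb (mTAL) of the rat, the stretch of kidney tubule in the outer medulla that takes up salt and leaves water behind. The group held 9 genes: the WNK kinases Wnk1 and Wnk4, the kinases Stk39 and Oxsr1, the scaffold genes Cab39 and Cab39l, the ubiquitin ligase genes Cul3 and Klhl3, and the sorting receptor gene Sorl1. Its members were all probe sets, the groups of short probes by which an Affymetrix array reads one transcript, that the platform annotation assigns to 1 of these genes and to no other gene. This gave 23 of the 20826 probe sets with a single gene, and they covered 8 of the 9 genes and of the 14217 genes measured in all. Wnk4 had no probe set of its own. The 2 probe sets that carry its symbol also carry those of Vps25 and Cntd1, and they were not read.

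All 3 arrays belong to 1 group, from male Sprague-Dawley rats 7 to 8 weeks old. Every animal had received heparin (250 u) and furosemide (1 mg), a blocker of the salt transporter Slc12a1, 30 min before death. The tubules were freed by collagenase and hyaluronidase and taken from a Percoll gradient, so the samples are an enriched preparation and not single cells. There was no animal without furosemide and no other tissue, so the questions open to these data are which of the genes gave a signal above background, whether the probe sets of a gene tell the same story, and how far the 3 preparations differed. The labels do not say whether the 3 samples are separate rats, and the p-values then reflect the scatter of these 3 arrays alone, part of which may be technical.

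WNK kinases sense chloride and cell volume. They switch on the kinases SPAK (gene Stk39) and OSR1 (gene Oxsr1), which in turn phosphorylate the cation-chloride cotransporters: the sodium-driven ones become active and the potassium-chloride ones are held back. In the thick limb the target is Slc12a1, the furosemide-sensitive cotransporter, and in the distal convoluted tubule it is the thiazide-sensitive Slc12a3. Cab39 proteins bind SPAK and OSR1 and raise their activity, a ligase built on cullin 3 with the adaptor Klhl3 removes WNK kinases, and Sorl1, known mainly from neurons, also sorts proteins in the thick limb.

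The values are signals per probe set on a linear scale, with medians over all probe sets of 256, 287 and 267 on replicates 1, 2 and 3. A gene with several probe sets was represented by the one with the highest mean. A value after ± is the SD of the 3 arrays (n = 3) unless it is named as an SE. A gene was called when its log2 signal lay above a cutoff set on each array, by limma with Benjamini-Hochberg adjustment over all 14217 genes. The cutoff was the 95th percentile of a list of genes known from brain, muscle, pancreas and other foreign tissues, of which 64 were measured, and lay at signals of 646, 755 and 627. Probe sets bind with different strength, so an order of signals is not an order of transcript abundance. All 14 thick limb markers were called, among them Umod (57036 ± 8031) and Egf (45192 ± 905). Markers of other cells were called in part: 3 of 19 for the proximal tubule, 5 of 12 for principal cells (Kcnj1 and Avpr2, also known from the thick limb, stand in that list), 4 of 5 for the thin limb, 6 of 10 for endothelium, 2 of 12 for leukocytes and 1 of 12 for fibroblasts and mural cells. For the distal convoluted and connecting tubule 0 of 7 were called by limma, and for intercalated cells likewise 0 of 7, with 0 at an unadjusted p below 0.05 in both.

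Of the 8 measured genes 7 were called (Wnk1, Stk39, Oxsr1, Cab39, Cab39l, Cul3 and Sorl1), where 42.3% of all genes were, and Klhl3 was not. Their median lay 2.80 log2 units above the cutoff, against -0.02 for all genes. At the level of probe sets 16 of the 23 were called, where 33.2% of all single-gene probe sets were, and the other 7 belonged to Wnk1, Cul3, Klhl3 and Sorl1. The 7 calls stood with the cutoff at the 90th percentile, at which 53.8% of all genes were called. With the dimmest probe set standing for each gene 4 were called (Stk39, Oxsr1, Cab39 and Cab39l), beside 37.3% of all genes. Oxsr1 and Cab39l have 1 probe set each, so for them only the cutoff changed. It was lower on all 3 arrays, so this setting was no stricter for these genes. With the cutoff at the 99th percentile 0 members were called by limma, with Sorl1 alone at an unadjusted p below 0.05 (0.0013). The list of foreign genes includes the muscle gene Myh1, whose probe set had a signal of 42933 ± 2949 and which with Cela1 brackets the 99th percentile. Without Myh1 in the list the same 7 genes were called, beside 41.9% of all genes.

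**Figure D1:**
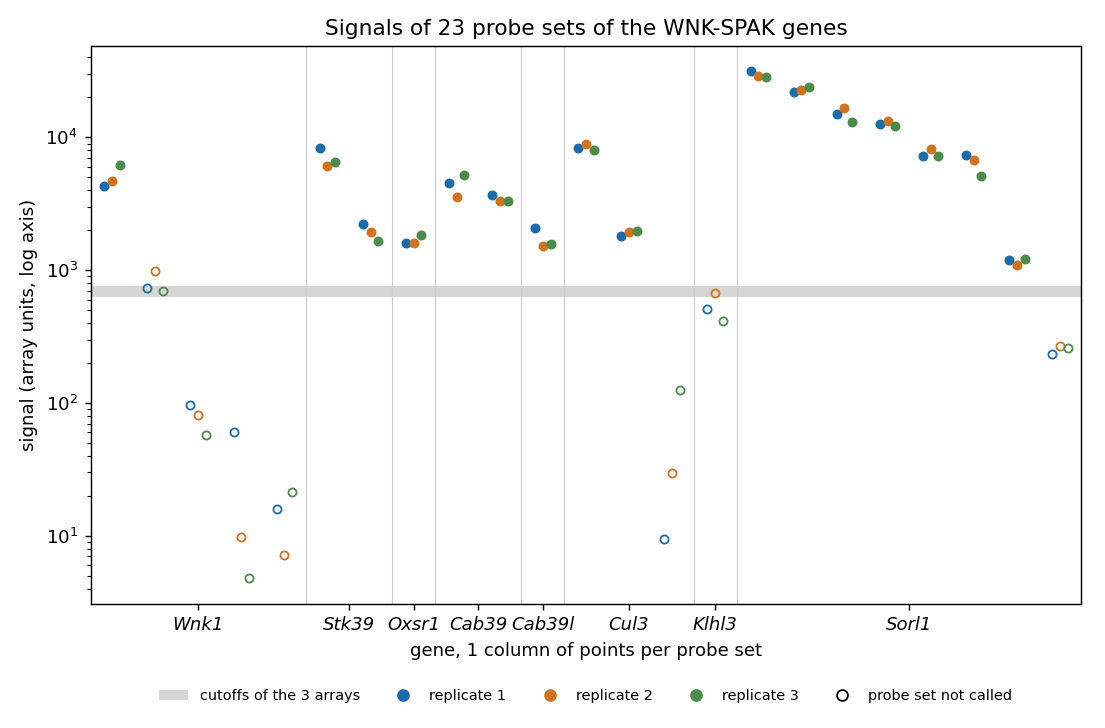
Signal (vertical axis, log scale, array units) of each of the 23 probe sets on replicates 1, 2 and 3, grouped by gene along the horizontal axis. The grey band spans the cutoffs of the 3 arrays, from 627 to 755, and open points mark the 7 probe sets that were not called, of which 4 belong to Wnk1.

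Wnk1, the WNK kinase with the broadest expression in the body, was called from 1 of its 5 probe sets. Probe set 1372791_at had signals of 4339, 4723 and 6226 on replicates 1, 2 and 3, 2.90 ± 0.20 (SE) log2 units above the cutoff (adjusted p = 0.00045, limma). All 3 arrays stood far above their cutoffs, with replicate 3 highest. Probe set 1387072_at, designed on the reference messenger RNA of the gene, had signals of 731, 982 and 701. Each was above the cutoff of its array, but by a mean of only 0.24 log2 units, which did not pass the test over all probe sets (adjusted p = 0.25, limma). The other 3 probe sets were dim on every array: 97.2, 81.7 and 57.0 for 1396919_at, 60.2, 9.72 and 4.77 for 1375300_at, and 15.96, 7.20 and 21.5 for 1368140_at. The call of Wnk1 therefore rests on a single probe set, and with the median of its probe sets the gene lay below the cutoff, at -2.57 log2 units (the cutoff itself was then taken from medians too). The kidney makes a short form of Wnk1 without most of the kinase domain beside the full-length form, and which form each probe set reads was not examined here.

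The kinases that WNK proteins switch on were both called. Stk39, which encodes SPAK, had signals of 8305, 6064 and 6496 on probe set 1387059_at, 3.35 ± 0.19 (SE) log2 units above the cutoff (adjusted p = 0.00032, limma). Its second probe set, 1370614_s_at, gave 2235, 1925 and 1647, also called. Replicate 1 was highest on both probe sets, although they differed 3.59-fold in mean signal. Oxsr1, which encodes OSR1, had a single probe set with signals of 1606, 1606 and 1833, 1.32 ± 0.16 (SE) above the cutoff (adjusted p = 0.0022, limma). Its 3 values lay close together, with an SD of 0.11 log2 units against 0.24 for the main probe set of Stk39. The higher signal of Stk39 is one of probe sets and does not show more Stk39 than Oxsr1 transcript.

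Both scaffold genes were called. Cab39 had signals of 4508, 3556 and 5178 on 1372244_at, 2.69 ± 0.22 (SE) log2 units above the cutoff (adjusted p = 0.00065, limma), and of 3690, 3322 and 3320 on 1372243_at. Replicate 3 was highest on the first and lowest on the second, so the probe sets gave no common order of the arrays. Their mean signals were the closest of any member with several probe sets, with a ratio of 1.28. Cab39l, its paralog, had 2064, 1510 and 1588 on its single probe set, 1.34 ± 0.19 (SE) above the cutoff (adjusted p = 0.0036, limma). Replicate 1 was the highest of the 3. All 3 were above their cutoffs, with replicate 2 nearest, at 1510 against 755.

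Of the ubiquitin ligase pair Cul3 was called and Klhl3 was not. Cul3, the scaffold that joins an adaptor to the ubiquitin-transfer machinery, had signals of 8352, 8900 and 8092 on 1399132_at, 3.65 ± 0.14 (SE) log2 units above the cutoff (adjusted p = 0.0002, limma). Its second probe set, 1393343_at, gave 1818, 1927 and 1972 and was also called, while the third, 1376241_at, gave 9.40, 29.7 and 124 and stayed under the cutoff on all 3 arrays. The SD over arrays of the called Cul3 probe sets, 0.07 and 0.06 log2 units, was among the smallest of the members.

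Klhl3, the adaptor that brings WNK kinases to cullin 3, had signals of 511, 676 and 415 on its only probe set. No array was above its cutoff, and the gene lay at -0.36 ± 0.16 (SE) log2 units (adjusted p = 1, limma). Replicate 2 was highest, and the SD of 0.35 log2 units was the largest among the genes. With the cutoff at the 90th percentile Klhl3 lay 0.45 above it, which still did not pass (adjusted p = 0.078, limma). The test does not show that Klhl3 is silent, only that its signal did not exceed this percentile of the foreign genes. Klhl3 is known from the distal convoluted tubule, whose 7 measured markers, with those of the connecting tubule, had summed signals of 753, 1115 and 1199 on replicates 1, 2 and 3, with none at 0. Slc12a3 was at 223, 324 and 382 and Pvalb at 12.1, 12.8 and 5.24. The part of such cells in the Klhl3 signal was not tested. In a bulk preparation fewer cells that express a gene and less RNA per cell cannot be told apart.

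Sorl1, whose product moves cargo between the Golgi and endosomes, had the highest signals of the group, and 7 of its 8 probe sets were called. The brightest, 1394786_at, gave 31484, 28937 and 28568, 5.46 ± 0.15 (SE) log2 units above the cutoff (adjusted p = 0.0002, limma). The next, 1377457_a_at, gave 21985, 22897 and 23826, and 1393933_at gave 15009, 16593 and 13106. The SD over arrays of these 3 was 0.08, 0.06 and 0.17 log2 units, and no array was highest on all of them. Probe sets 1390710_x_at, 1377458_at, 1393626_at and 1386269_x_at followed with means of 12746, 7520, 6413 and 1161. The only one not called was 1386268_at, at 234, 267 and 260. The probe sets share sources: 3 were designed on 1 sequence tag and 2 on another, so the 8 are not independent measurements. The 2 that share a tag, 1386269_x_at and 1386268_at, had mean signals of 1161 and 254. With the dimmest probe set in its place Sorl1 lay at -0.72 log2 units, below the cutoff.

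Across the array 69 other genes of the pathway, in 7 lists, were measured, and 52 of them (75.4%) were called, beside the same 42.3% of all genes. These lists were drawn up for the pathway with earlier results known and hold many widely expressed genes. The count of each list below is to be read beside the same 42.3%.

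**Figure D2:**
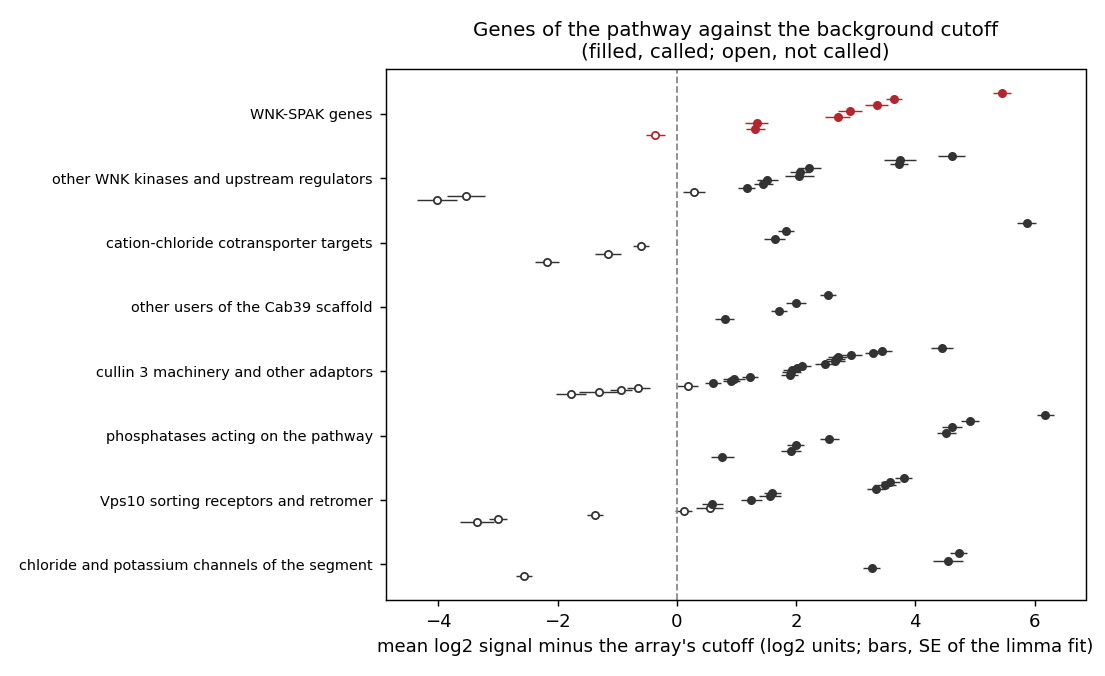
Mean log2 signal minus the array's cutoff (horizontal axis, log2 units, bars are the SE of the limma fit) for the 8 measured WNK-SPAK genes in red and for 69 other pathway genes by list. Filled points were called and open points were not; Klhl3 is the only open point in red, and all 8 phosphatase genes are filled.

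Of the cotransporters on which the kinases act, 3 of 6 were called, near the 42.3% of all genes. The list median was 0.52 log2 units above the cutoff. Slc12a1, the main salt entry of the segment, had signals of 42345, 37545 and 38391, 5.87 log2 units above the cutoff. Slc12a2, the widely expressed sodium, potassium and chloride cotransporter, had 1619, 2618 and 2182, and Slc12a7, a potassium-chloride cotransporter, 2359, 2518 and 2293. Every array was above its cutoff for these 3 genes. Slc12a3 (310 ± 80.8), Slc12a4 (445 ± 32.7) and the neuronal Slc12a5 (153 ± 47.3) were not called.

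Among upstream regulators and the second WNK gene measured, 9 of 12 were called, at a list median of 1.78. The highest were Tsc22d1 (16867 ± 4521), the calcium-sensing receptor gene Casr (9308 ± 3004) and the glucocorticoid-induced Tsc22d3 (9023 ± 1817). The lowest were Stk11 (62.1 ± 28.9), the gene of the kinase LKB1, and Wnk2 (47.1 ± 28.9), a WNK kinase known from brain. Neither was called, so that Wnk1 was the only one of the 2 WNK genes with probe sets of their own to be called. Of the list of other proteins that use Cab39, all 4 measured genes were called, at a list median of 1.85. Stk11, which forms a complex with Strada or Stradb and Cab39, was listed with the regulators and, as given above, was not called. The 4 were the kinase genes Stk24 (2209 ± 236) and Stk25 (2703 ± 235) and the pseudokinase genes Strada (1179 ± 63.7) and Stradb (3896 ± 315).

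Of the cullin 3 machinery and other adaptors 17 of 22 genes were called, at a list median of 1.92. The list also held a ubiquitin ligase gene of another type, which is counted among the called. The highest were Nedd8 (14752 ± 1531), the ubiquitin-like protein that activates cullins, the adaptor gene Klhl9 (7355 ± 521) and Rbx1 (6644 ± 616), the RING subunit of the ligase. The lowest were Klhl13 (295 ± 129) and Klhl20 (201 ± 52.0), which were not called. Klhl2, the close relative of Klhl3 that can also target WNK kinases, is not among these extremes and was looked up after its value was known. It had signals of 1491, 1708 and 1539 and was called, at 1.23 log2 units above the cutoff (adjusted p = 0.0016, limma). Klhl2 was thus above the cutoff on every array and Klhl3 on none.

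All 8 phosphatase genes were called, at a list median of 3.54, led by Ppp1r1a (49138 ± 4535), an inhibitor of protein phosphatase 1, and the catalytic subunit genes Ppp1cc (20326 ± 590) and Ppp1cb (16522 ± 1355). The lowest were the calcineurin gene Ppp3cb (2546 ± 223) and Ppp4c (1149 ± 149). The list of relatives of Sorl1 and of the retromer, the coat that recycles such receptors, also held other sorting genes such as Gga2. Of its 13 genes 8 were called, at a list median of 1.25. Sort1 (9433 ± 389), Gga2 (8071 ± 405) and the retromer subunit Vps29 (7635 ± 954) were highest. The receptor genes Sorcs1 (84.3 ± 6.16) and Sorcs3 (71.5 ± 34.8) were lowest and were not called. Of the chloride and potassium channel genes of the segment 3 of 4 were called, at a list median of 3.91. Kcnj16 had signals of 18218, 17612 and 17666, the apical potassium channel Kcnj1 21634, 17472 and 10300, and the chloride channel subunit Bsnd 6558, 6524 and 6358. Kcnj10 was not called, at 117, 119 and 106. Kcnj1 was lowest on replicate 3 and had an SD of 0.55 log2 units, while the SD of the other 3 channel genes was at most 0.09.

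The spread of the members over the arrays was compared with that of other genes. The SD of log2 signal had a median of 0.24 over the 8 genes, which include Klhl3, below the cutoff. The median was 0.25 over all genes and 0.15 over the 7070 genes with a mean above the mean cutoff. Oxsr1 (0.11), Cul3 (0.07) and Sorl1 (0.08) were under the median of the 7070 genes and the other 5 were over it. Of the genes above the cutoff, 82.5% had a smaller SD than Wnk1 and 15.9% a smaller one than Cul3. Over the 16 called probe sets the SD ran from 0.06 to 0.27, and over the 4 probe sets with a mean signal under 100 from 0.39 to 1.89.

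**Figure D3:**
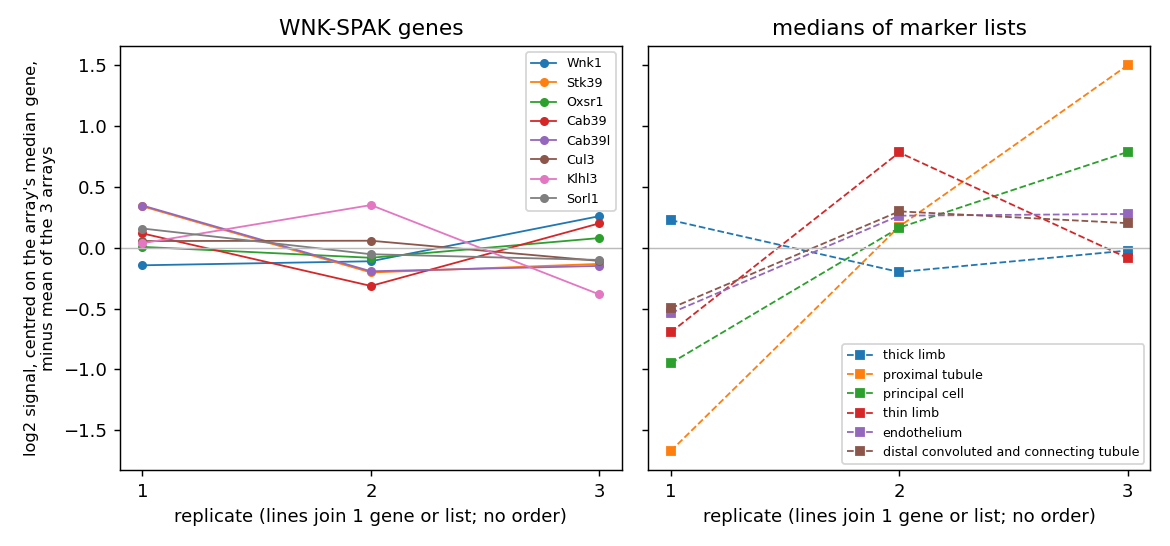
Log2 signal on replicates 1, 2 and 3, centred on the median gene of each array, minus the mean of the 3 arrays (vertical axis, log2 units), for the 8 WNK-SPAK genes on the left and for the medians of 6 marker lists on the right. The 8 genes stay between -0.38 and 0.35, while proximal tubule markers were lowest on replicate 1 and highest on replicate 3.

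The preparations differed in the signal of markers of several other cell types, and the members differed in both directions. After the median gene of each array was subtracted, 18 of 19 proximal tubule markers were higher on replicate 3 than on replicate 1, by a median of 3.08 log2 units, and their summed signal was 8328, 26728 and 78162 on replicates 1, 2 and 3, with none at 0. The median difference was 1.45 for principal cell markers (9 of 12 higher on replicate 3), 1.38 for those of fibroblasts and mural cells (10 of 12), 0.73 for endothelium (8 of 10), 0.70 for the thin limb (5 of 5) and 0.66 for the distal convoluted and connecting tubule (5 of 7). It was 0.39 for intercalated cells (6 of 7) and 0.26 for leukocytes (8 of 12). Summed signals of thin limb markers were 27326, 72996 and 41454, highest on replicate 2, as were those of endothelium (16225, 27609 and 24859). Thick limb markers had a median difference of -0.26 and the 8 members one of -0.21, against -0.11 for all genes. Of the members 3 were higher on replicate 3, led by Wnk1 (0.40), with Cab39 (0.08) and Oxsr1 (0.07), and 5 were lower: Cab39l (-0.50), Stk39 (-0.47), Klhl3 (-0.42), Sorl1 (-0.26) and Cul3 (-0.16). On its second probe set Stk39 differed by -0.56, whereas the second probe set of Wnk1, which was not called, gave -0.18 and the second of Cab39, which was called, -0.27, both opposite to the first. Each array is 1 preparation, so these differences have no test, and the part of other cell types in them was not tested.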

How the data were processed

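Gene expression was measured on 3 Affymetrix arrays of 1 group. The values the authors deposited are linear intensity values, 1 for each array and probe set. Biotin-labelled cRNA was prepared by the maker's protocol, per the labels' protocols; how probes were summarised and scaled is not given in the sources used here. No value was 0 or below, so log2 was taken without a pseudocount or further scaling. Of 31099 probe sets 57 were controls, 436 had several genes, 9780 none and 20826 one, named by the platform annotation; 20758 of these were found by identifier in the RefSeq gene table of GRCr8, with 0 symbols changed.

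Log2 signal minus each array's cutoff was fitted in limma 3.58.1 (R 4.3.3; lmFit, eBayes, one-sided above 0) over all genes, and again over all probe sets, with adjustment by Benjamini and Hochberg at 0.05. The main cutoff lay just below Mbp on every array, above Lhb on replicate 1 and above Fga on replicates 2 and 3. The SD is over the 3 arrays, whose number limits the precision. The fit was tested on simulated data for 14217 genes, with levels and SDs as measured except for the genes placed at set levels. Those took SDs drawn from genes with a mean above the cutoff, and noise was independent between genes. Of 100 genes set 0.5 log2 units over the cutoff the fit called 71, and of 100 each set 1, 2 and 4 units over it 99, 100 and 100. Of all 6406 calls 10 were of genes set at or below the cutoff.

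The members, the gene lists, the tests and the rule for naming genes were chosen with earlier results of these data known. Named are all members, all cotransporters and channels, and of each other list the 3 genes highest and the 2 lowest in signal. The alternatives were other cutoffs, scalings, a pseudocount of 16, other rules for the probe set of a gene, a filter on dim genes, limma with a trend, and leaving out each array.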

Additional observations from a re-analysis of the deposited data

How the results depend on the processing

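The count of 7 called genes was the same under quantile normalization, a pseudocount of 16, a limma trend and a filter on dim genes. It also held with cutoffs at the 90th percentile or without Myh1, and without each array in turn. A common 75th percentile moves the signals of an array and its cutoff by the same amount, so it could not change a call. The count was 6 with the median of the probe sets, where the share of all genes called was not counted. It was 4 with the dimmest probe set per gene, beside 37.3% of all genes. Oxsr1 and Cab39l, with 1 probe set each, kept their signals under both rules, while the cutoffs were lower. With the cutoff at the 99th percentile 0 members, 0 of their probe sets and 0 other pathway genes were called by limma, as were 0 of all genes, of which 196 had an unadjusted p under 0.05, Sorl1 among them (0.80 above this cutoff). That cutoff lies between Cela1 and Myh1, so it rests on Myh1. At it the others lay below: Wnk1 at -1.76, Stk39 at -1.30, Oxsr1 at -3.34, Cab39 at -1.96, Cab39l at -3.32 and Cul3 at -1.01. With the dimmest probe set, Wnk1 was at -4.94, Cul3 at -3.67 and Sorl1 at -0.72, and with the median Wnk1 was at -2.57. Klhl3 changed sign without passing the test: 0.45 at the 90th percentile, 0.015 without Myh1, 0.33 with the dimmest and 0.20 with the median probe set. It has 1 probe set, so in all 4 only the cutoff moved, downward. The median SD and the median array difference of the members moved by less than their spread in each alternative tried. Under the common 75th percentile the array difference could not move, since it is centred on the median gene of each array. The number of arrays limits the precision, and the 4 member probe sets with a mean signal under 100 had larger log2 SDs than the 16 called ones.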
